A study of Homo sapiens with 4 samples.

Results

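The genes described here lie around BCR on the long arm of chromosome 22. They are the protein-coding genes of the deposited count table that lie between 20300 and 24500 kb of chromosome 22 on GRCh38, with immunoglobulin segments left out. They were found by matching the table's Ensembl identifiers to GENCODE release 29, which gave 62 of the 20348 genes in the table. BCR (ENSG00000186716; chromosome 22, 23179704 to 23318037, plus strand) divides them. A total of 39 genes start before the end of BCR, BCR included, and 23 start after it. The matching used positions, though the interval itself was chosen with earlier results of these data known. Another 3 protein-coding genes of the interval, USP41, GGT2 and AC253536.7, were not analysed here.

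The study sequenced poly(A) RNA of 2 human leukemia lines after 72 h in DMSO, the solvent control, or in 100 nM periplocin, a plant cardiac glycoside. K562 is an erythroleukemia line from a patient with chronic myeloid leukemia in blast crisis, and THP-1 is a monocytic line from acute myeloid leukemia. There were 4 libraries, 1 for each combination of line and treatment, with 16381149 to 20622694 counts each. Without replicates, a ratio between 2 libraries is given with an exact 95% binomial interval, which covers counting error only. No test of a pairwise difference was possible, and no spread between cultures was measured. A gene is called higher or lower where the ratio reached 2-fold, a log2 ratio of 1, and the pair had a mean of at least 1 CPM, the count scaled to a library of 1000000 counts. All 10 erythroid markers were higher in the K562 DMSO library and all 10 myelomonocytic markers were higher in the THP-1 DMSO library, as the labels would have it. Among 7 markers of lymphoid cells, NCAM1 had 3134 counts in THP-1 against 3 in K562, CD3D had 121 in K562 against 0 in THP-1, and MS4A1 was at 0 in every library.

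The BCR protein carries an oligomerization domain and domains that regulate small GTPases. In chronic myeloid leukemia a translocation joins the first part of BCR to most of the tyrosine kinase gene ABL1 of chromosome 9, and the fused protein is a kinase that is always active. Adaptors such as CRKL act downstream of it. K562 is known to carry the fusion in many copies, and the amplified DNA includes chromosome 22 sequence up to the break inside BCR. DNA copy number was not analysed here, so the values below are of RNA alone, and its part in them was not tested.

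The fusion transcript of K562 joins exon 14 of BCR to exon 2 of ABL1. The bases on each side of the junction are shown because the counts were made by gene and do not separate fusion reads from reads of the unbroken genes. The sequences are from the GENCODE release 29 transcripts of BCR with 23 exons and of ABL1 with 11 exons, both on the plus strand, 5′ to 3′, at chr22:23290384-23290413 and chr9:130854064-130854093. Capitals mark the 6 bases next to the junction.
BCR exon 14, last 30 bases: actcagccactggatttaagcagaGTTCAA
ABL1 exon 2, first 30 bases: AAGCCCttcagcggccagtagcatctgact
Exons 1 to 14 hold 3533 of the 7082 bases of that BCR transcript, or 49.9%. Exon 2 and those after it hold 3314 of the 3824 bases of the ABL1 transcript, or 86.7%. A read from either stretch adds to the gene's count whether or not the transcript was fused.

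BCR itself had more RNA in K562, under 2-fold in DMSO and just over it in periplocin. Its ratios lay below those of most of the genes before it. BCR had 2290 counts in K562 and 1536 in THP-1 in DMSO, and 2534 and 1187 in periplocin. Both K562 libraries lay above both THP-1 libraries. The log2 ratio was 0.79 (95% counting interval 0.69 to 0.88) in DMSO and 1.02 (0.92 to 1.12) in periplocin. Per length, BCR was at 11.3 and 6.01 CPM per kb of exon (RPKM) in the K562 and THP-1 DMSO libraries. The nearest member before BCR with at least 1 CPM was GNAZ, a G protein alpha subunit that ends 54.7 kb before BCR. It had 11 and 7 counts in the K562 libraries in DMSO and periplocin, and 67 and 25 in the THP-1 libraries, so that it was lower in K562. The nearest one after BCR was RGL4, a relative of the exchange factors of Ral GTPases, 370.1 kb past its end. RGL4 had 134 and 341 counts in K562 and 288 and 493 in THP-1, with log2 ratios of -0.89 (-1.20 to -0.59) and -0.61 (-0.81 to -0.41) that did not reach 2-fold.

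In DMSO the ratio of the lines stepped down between the members before BCR and those after it. The place of the fall was not resolved to BCR, since PRAME, the last well-expressed member before it, ends 620.3 kb before its start. GNAZ lies between them but passed the filter through its THP-1 library alone, so it cannot place the fall. Of the 39 genes up to the end of BCR, 29 passed the filter on low values. Of these 21 were higher in K562, or 72.4%, and 4 were lower, or 13.8%. Over all 12848 genes that passed the filter, 21.0% were higher and 22.9% were lower. The median log2 ratio was 1.74, a 3.34-fold difference, against -0.03 over all genes. Of the 23 genes after BCR, 11 passed the filter, none was higher and 2 were lower, with a median log2 ratio of -0.22. A gene may pass this filter through its high library alone. With at least 1 CPM asked of both libraries, 19 of 25 genes up to the end of BCR were higher and 2 lower, and none of 10 after it was higher. The genes at or under 3 counts in every library numbered 7 before the end of BCR and 6 after it, and of these 4 and 2 had no count at all.

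**Figure D1:**
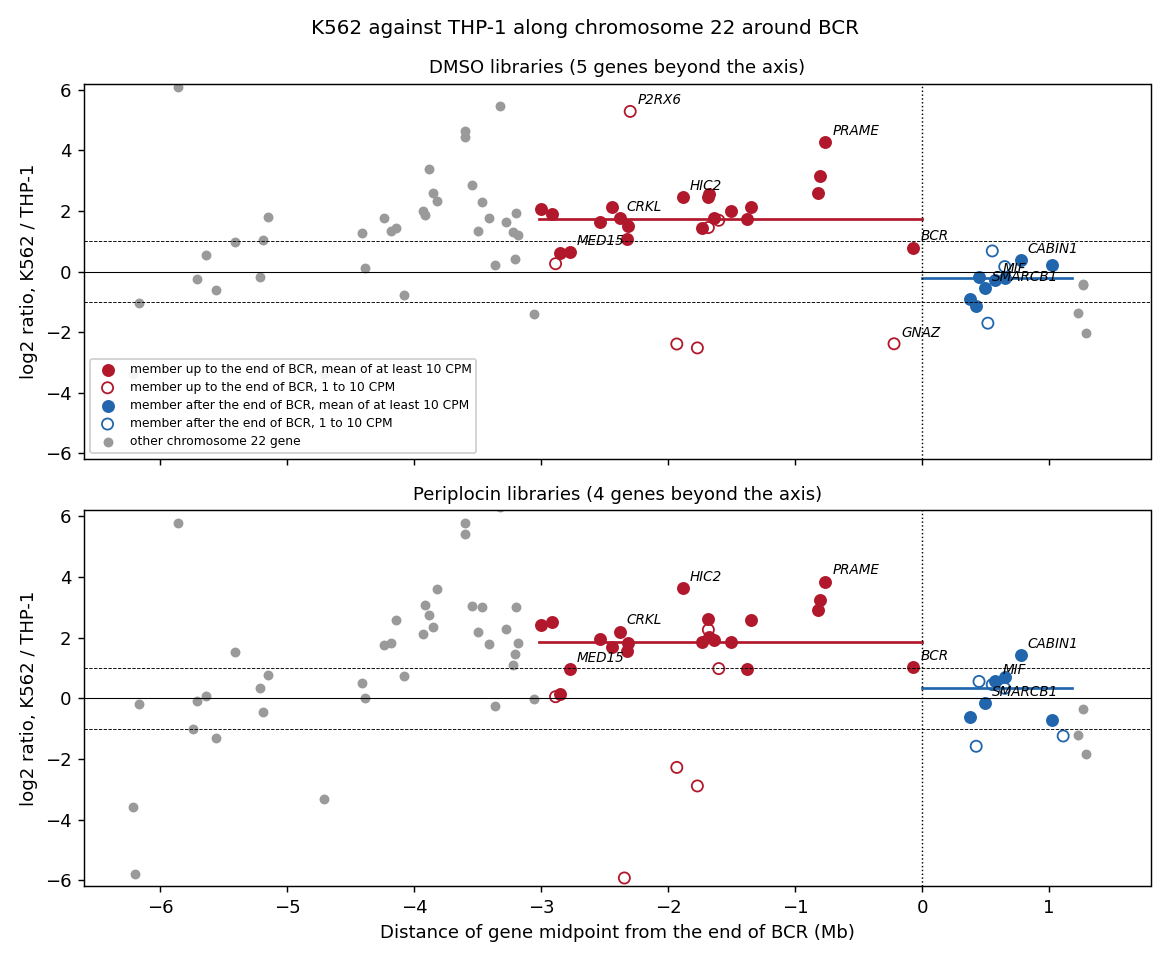
Log2 ratio of K562 to THP-1 (vertical axis) against the distance of each gene's midpoint from the end of BCR in Mb (horizontal axis), in DMSO (top) and periplocin (bottom). Red and blue points are members up to and after the end of BCR, filled where the mean is at least 10 CPM, grey points are other protein-coding genes of chromosome 22, coloured lines are the medians of members (1.74 and -0.22 in DMSO, 1.85 and 0.33 in periplocin), and dashed lines are 2-fold; the filled red points all lie above 0.

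Among well-expressed genes the ratios on the 2 sides did not overlap in DMSO. In DMSO, 21 genes up to the end of BCR had a mean of at least 10 CPM, and their log2 ratios ran from 0.61 for KLHL22 to 4.26 for PRAME, with 18 higher, where 18.3% of all genes at that level were. After BCR the 8 genes at that level ran from -1.12 for ZNF70 to 0.38 for CABIN1. The lowest value of the first set was thus above the highest of the second. The counting intervals of these 2 genes, KLHL22 (0.43 to 0.79) and CABIN1 (0.28 to 0.47), did overlap. The level is a mean of the pair, so a gene may reach it through its high library alone. In counts of K562 and THP-1 in DMSO, ZNF280A (320 and 42) did so before BCR and ZNF70 (127 and 320) after it. In periplocin the sets overlapped, since the first began at 0.13 for KLHL22 and the second reached 1.44 for CABIN1. Among the 21 genes at that level up to the end of BCR in DMSO, the smallest log2 ratios were those of KLHL22, MED15 and BCR, between 0.61 and 0.79. The counting intervals of KLHL22 (0.43 to 0.79), MED15 (0.57 to 0.73) and BCR (0.69 to 0.88) overlapped. That of BCR lay below that of LZTR1 (0.97 to 1.21), the next gene up.

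The periplocin libraries, which share no library with the DMSO pair, gave a like median up to the end of BCR, though single genes moved. HIC2 went from 2.45 in DMSO to 3.63 in periplocin. PPM1F (1.74 to 0.97) and YPEL1 (1.69 to 0.98) fell under 2-fold, and BCR (0.79 to 1.02) passed it. After the end of BCR, MIF, DDT, CHCHD10 and SPECC1L changed the sign of their ratio. Up to the end of BCR, 19 of 27 genes were higher in K562 in periplocin, or 70.4%, and 3 were lower, or 11.1%, where 22% and 25.2% of all genes were. After it, 1 of 11 was higher, CABIN1, and 2 were lower. The medians were 1.85 and 0.33. The second was -0.16 without the members listed as having near-identical copies, which were DDT and DDTL among those over the filter there. Of 27 genes up to the end of BCR that passed the filter in both comparisons, 18 were higher in both, while none of 10 genes after it was, where 15.2% of all genes were. Across the 37 members concerned, the 2 line ratios correlated with a Pearson r of 0.96 and a Spearman rho of 0.92, given as a description since the pairs share the lines. Of the members with a mean of at least 10 CPM over the 4 libraries, both K562 libraries lay above both THP-1 libraries for 20 of 21 before the end of BCR and for 1 of 7 after it, where 39.1% of all genes at that level met this. KLHL22 was the exception before and CABIN1 the 1 after.

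A model of line and treatment over the 4 libraries gave the only p-values the design allows. Its error, on 1 residual degree of freedom, is how far the responses of the lines disagreed and is no spread between cultures. By edgeR's quasi-likelihood test with Benjamini-Hochberg adjustment over 13584 genes, 16.7% of all genes were higher in K562 and 19.6% lower. Among the 30 genes tested up to the end of BCR, 20 were higher and 3 lower. Of the 12 tested after BCR none passed in either direction, with 2 at an unadjusted p under 0.05, and DESeq2 called none of them either. BCR passed with a log2 difference of 0.92 (edgeR, adjusted p = 0.041). PRAME had the lowest adjusted p of all members (edgeR, 0.00031). KLHL22 (adjusted p = 0.435), MED15 (0.063) and GNAZ (0.078) did not pass in edgeR.

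Of the 10 signalling genes listed, 9 passed the filter in DMSO, with 5 higher and 1 lower in K562, where 21.0% and 22.9% of all genes were. All 5 lie before BCR, as does the lower one, GNAZ, with a log2 ratio of -2.38 (-3.46 to -1.46). The genes of this list after BCR, RGL4 and SPECC1L, were not called. CRKL, the adaptor that is a main substrate of BCR::ABL1, had 11089 and 20708 counts in K562 in DMSO and periplocin, and 3766 and 4272 in THP-1. The K562 libraries did not overlap the THP-1 libraries, and the log2 ratio was 1.77 (1.72 to 1.82) in DMSO and 2.20 (2.15 to 2.25) in periplocin. PI4KA, which makes phosphatidylinositol 4-phosphate, had 9800 and 13245 counts in K562 against 3692 and 3227 in THP-1, a log2 ratio of 1.62 in DMSO. Reads of PI4KA may be shared with its pseudogene copies on the same chromosome. PPM1F, a serine/threonine phosphatase, had a log2 ratio of 1.74 in DMSO and 0.97 (0.87 to 1.08) in periplocin, under 2-fold. LZTR1, an adaptor of a ubiquitin ligase that acts on RAS proteins, had 1.09 in DMSO and 1.55 in periplocin. After BCR, SPECC1L, a protein of the cytoskeleton, had 1391 and 1013 counts in K562 and 1377 and 1578 in THP-1, and the lines overlapped.

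Genes of the nucleus held the 2 largest ratios among well-expressed members. Of 11 on the list, 7 were higher and 1 lower in DMSO (21.0% and 22.9% of all genes), with a median log2 ratio of 1.89. PRAME, a cancer-testis antigen that serves as a substrate receptor of a ubiquitin ligase, had 21342 and 32029 counts in K562 and 1290 and 2108 in THP-1. At 345 RPKM in the K562 DMSO library against 16.6 in THP-1, it had the largest log2 ratio among the well-expressed members, 4.26 (4.18 to 4.34). Its neighbours ZNF280A and ZNF280B, zinc finger genes, followed it in order with log2 ratios of 3.14 (2.67 to 3.64) and 2.58 (2.35 to 2.82). HIC2, a transcription factor with a BTB domain, had 3332 and 6772 counts in K562 and 704 and 518 in THP-1. Its log2 ratio was 2.45 in DMSO and 3.63 in periplocin. TOP3B, a topoisomerase, followed with 2.13, the zinc finger gene ZNF74 with 1.89, and THAP7, a zinc finger repressor, with 1.49. MED15, a Mediator subunit, had 0.65. On the other side of BCR, SMARCB1, a core subunit of the SWI/SNF remodelling complex, had 789 and 892 counts in K562 and 1327 and 945 in THP-1, a log2 ratio of -0.54 (-0.67 to -0.41) in DMSO. ZNF70, a zinc finger gene, had -1.12 (-1.43 to -0.82). CABIN1, which binds calcineurin, had 0.38 in DMSO and 1.44 (1.35 to 1.52) in periplocin, with 1912 and 4001 counts in K562 and 1702 and 1403 in THP-1. The CABIN1 libraries in DMSO stood close together, while K562 in periplocin stood above the other 3.

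**Figure D2:**
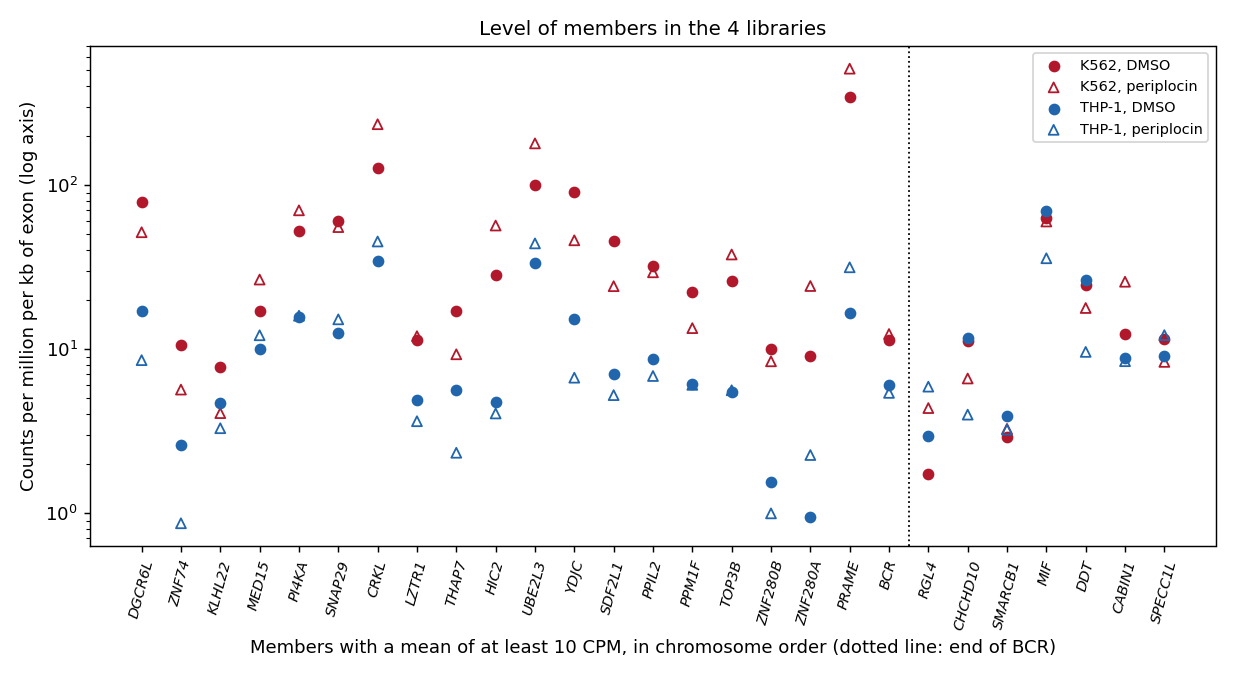
Level of members with a mean of at least 10 CPM over the 4 libraries, 1 of which is not shown, in CPM per kb of exon on a log axis, in chromosome order with the end of BCR as the dotted line. Red symbols are K562 and blue symbols THP-1, filled circles DMSO and open triangles periplocin; to the left of the line the red symbols lie above the blue for every gene shown but KLHL22, and to the right for 1 of 7, where 39.1% of all genes at that level had both K562 libraries above both THP-1 libraries.

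Genes of protein turnover and the secretory path lay mostly before BCR. Of the 6 on the list, 4 were higher in K562 in DMSO and 1 was lower, where 21.0% and 22.9% of all genes were. UBE2L3, a ubiquitin-conjugating enzyme, had 6247 and 11404 counts in K562 and 2663 and 2998 in THP-1, a log2 ratio of 1.44 (1.38 to 1.51) in DMSO. SNAP29, a SNARE protein of autophagosome fusion, had a log2 ratio of 2.13, and SDF2L1, a protein of the endoplasmic reticulum, had 2.56. PPIL2, a cyclophilin with a U-box, had 1.76. KLHL22, an adaptor of a cullin ubiquitin ligase, had 593 and 313 counts in K562 and 449 and 271 in THP-1, so that its lines overlapped. DERL3, which acts in removal of misfolded proteins from the endoplasmic reticulum, is the list's gene after BCR and had 10 and 7 counts in K562 and 38 and 8 in THP-1.

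Enzymes of small molecules and mitochondrial proteins all lay after BCR among those that passed the filter, and none of these 4 was called in either comparison of lines. With 21.0% and 22.9% of all genes called in DMSO and 22% and 25.2% in periplocin, 0 of 4 is a count too small to set them apart. MIF, a cytokine with tautomerase activity, had 1138 and 1101 counts in K562 and 1590 and 703 in THP-1. Its log2 ratio was -0.27 (-0.38 to -0.16) in DMSO and 0.57 (0.43 to 0.71) in periplocin, so that the order of lines turned with the treatment. DDT, a tautomerase related to MIF, had -0.22 and 0.71, and CHCHD10, of the mitochondrial intermembrane space, had -0.19 and 0.56. DDT shares sequence with DDTL, and their summed counts gave -0.19 (-0.34 to -0.04) in DMSO and 0.67 (0.46 to 0.88) in periplocin. The 4 genes of precursor B cells, VPREB1, VPREB3, IGLL1 and IGLL5, which form the surrogate light chain or resemble its parts, had between 0 and 4 counts in any library. Of the 2 genes that stand on no role list but passed 10 CPM, YDJC, related to carbohydrate deacetylases, had 2595 and 1337 counts in K562 and 550 and 208 in THP-1, a log2 ratio of 2.45. DGCR6L had a log2 ratio of 2.08, and its reads may be shared with its copy DGCR6.

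Of the genes lower in K562 before the end of BCR, none reached 10 CPM on average over the libraries. AIFM3, a relative of the mitochondrial apoptosis-inducing factor, had 1 count in each K562 library and 219 and 65 in THP-1. The raw ratio was 0.0053 in DMSO, with a log2 counting interval of -12.87 to -5.07. RIMBP3B and its near-identical copy RIMBP3C had 69 and 25 counts together in K562 and 432 and 131 in THP-1, a log2 ratio of -2.43 (-2.82 to -2.07) in DMSO. RIMBP3C was named after its values were seen. P2RX6, an ATP-gated channel, went the other way, with 139 and 24 counts in K562 and 4 and 5 in THP-1. Its log2 ratio was 5.28 (3.94 to 7.23) in DMSO and 2.16 (0.77 to 3.93) in periplocin, where its mean of 0.83 CPM was under the filter.

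The summed counts of the members showed the same contrast. The 39 genes up to the end of BCR took 6026 CPM in K562 and 1416 in THP-1 in DMSO, and 7998 and 1554 in periplocin, where CPM are per total count. After TMM scaling, as for the other ratios, K562 was 3.91-fold and 4.56-fold THP-1, or 3.21-fold and 3.74-fold without PRAME. The 23 genes after it took 402 and 386 CPM in DMSO and 491 and 324 in periplocin, ratios of 0.956 and 1.34 after TMM scaling and of 1.04 and 1.52 per total count. Bulk RNA cannot tell a larger share of cells from more RNA per cell.

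The high ratios did not begin at the edge of the chosen interval. On chromosome 22 before it, 25 of 40 genes that passed the filter were higher in K562 in DMSO, or 62.5%. Another 6 were lower, or 15.0%, and the median log2 ratio was 1.33. Over all genes 21.0% were higher and 22.9% lower. In bins of 1 Mb, the median was -0.60 over 9 genes from 17 to 18 Mb, 0.59 over 6 genes from 18 to 19 Mb, and 2.16 over 18 genes from 19 to 20 Mb, of which 16 were higher. The bin from 22 to 23 Mb, with 3 genes, stood at 3.14, and the bin from 23 to 24 Mb, which holds the end of BCR, at -0.27. After the interval, 35 of 242 genes were higher, or 14.5%, and 76 lower, or 31.4%, with a median of -0.48. The median of the members after BCR, -0.22, lay above that median.

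**Figure D3:**
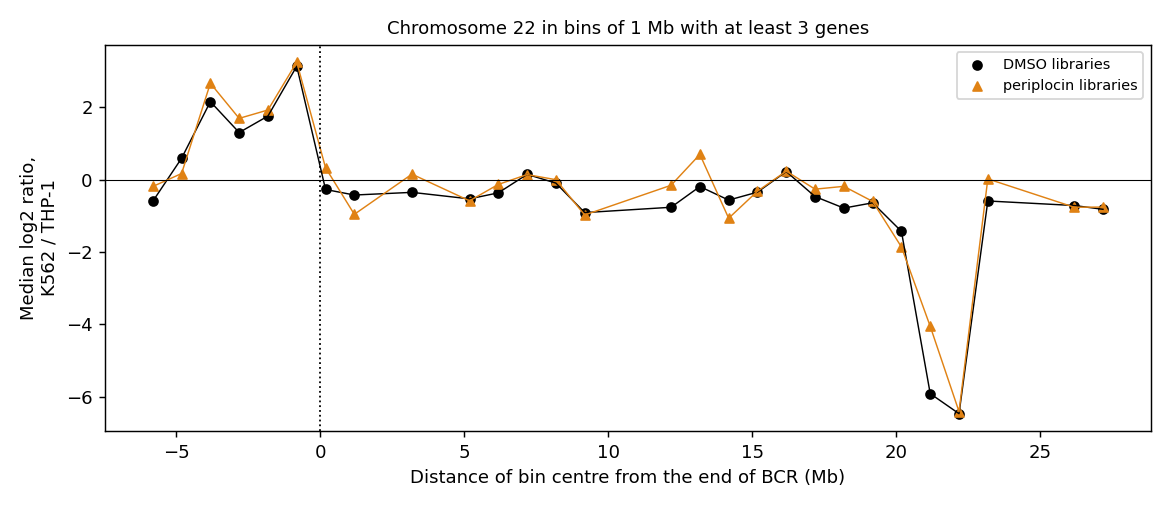
Median log2 ratio of K562 to THP-1 over protein-coding genes in 1 Mb bins of chromosome 22 with at least 3 genes, against the distance of the bin centre from the end of BCR in Mb. Black circles are the DMSO libraries and orange triangles the periplocin libraries; the 4 bins from 19 to 23 Mb lie above 1 in both, and the fall comes between the bin of median 3.14 and the bin of median -0.27 in DMSO.

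The partner gene ABL1 (ENSG00000097007) had 5200 and 5365 counts in K562 and 2216 and 1266 in THP-1. The log2 ratio was 1.44 (1.37 to 1.51) in DMSO and 2.01 (1.92 to 2.1) in periplocin, and the libraries of the lines did not overlap. On chromosome 9 the medians on the 2 sides of the start of ABL1 lay closer together than those on the 2 sides of the end of BCR. Within 2.1 Mb before its start, 8 of 30 genes were higher in K562 in DMSO, or 26.7%, and 2 were lower, with a median of 0.67. Within 2.1 Mb from its start on, 4 of 14 were higher, or 28.6%, and 1 was lower, with a median of 0.28. The 4 were ABL1 itself, AIF1L (log2 ratio 5.15; 711 and 23 counts in K562 and THP-1), NUP214 (2.03; 10111 and 2860) and MED27 (1.33). FIBCD1, which lies between ABL1 and AIF1L, had -0.56. Over all genes 21.0% were higher and 22.9% lower, so the shares of higher genes in DMSO were near that of all genes. The shares of lower genes, 6.67% and 7.14%, were under it. In periplocin the medians on the 2 sides were 0.74 and 0.62. There 10 of 30 genes before the start of ABL1 were higher, or 33.3%, and 3 were lower. From its start on 6 of 14 were higher, or 42.9%, and 1 was lower, where 22% and 25.2% of all genes were. The counts of BCR and ABL1 together gave log2 ratios of 1.21 (1.15 to 1.27) and 1.61 (1.55 to 1.68).

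**Figure D4:**
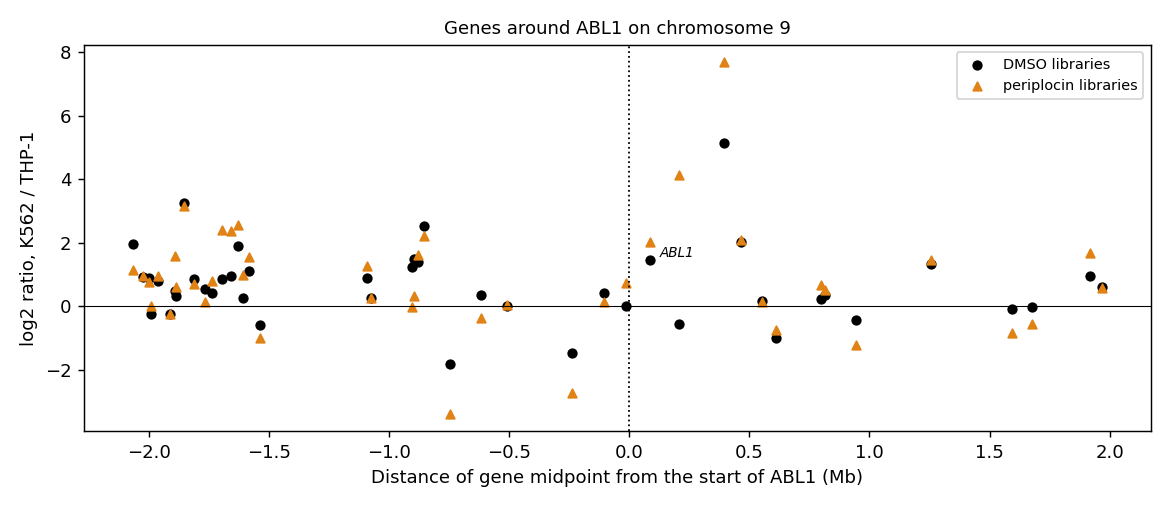
Log2 ratio of K562 to THP-1 for protein-coding genes within 2.1 Mb of the start of ABL1 on chromosome 9, against the distance of the gene's midpoint from that start in Mb. Black circles are the DMSO libraries and orange triangles the periplocin libraries; ABL1 lies at 1.44 and 2.01, and genes on both sides of it scatter around medians of 0.67 and 0.28 in DMSO.

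Other genes of BCR::ABL1 signalling, which lie elsewhere in the genome, were found in both directions between the lines. Of 22 adaptors and kinases, ABL1 included, 4 were higher in K562 in DMSO and 7 were lower, where 21.0% and 22.9% of all genes were, and the median log2 ratio was -0.39. The 4 were ABL1, the adaptor GAB2 (2.19), and the transcription factors STAT5A (5.19) and STAT5B (2.04). Among the 7 were the adaptors GRB2 (-1.38), DOK1 (-1.28) and DOK2 (-8.05), the ubiquitin ligase CBL (-1.27), the phosphoinositide 3-kinase subunit PIK3R1 (-1.69) and the phosphatase INPP5D (-8.22). DOK2 had 5 counts in the K562 DMSO library, so its ratio is loose. In periplocin 4 were higher and 8 lower, beside 22% and 25.2% of all genes.

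In K562 the members went in both directions with periplocin. Of 37 members that passed the filter, 3 were higher than in DMSO, or 8.11%, and 5 were lower, or 13.5%, where 8.84% and 11.6% of all genes were, so that the shares were near those of all genes. The 3 were ZNF280A, RGL4 and CABIN1. ZNF280A went from 320 to 862 counts, a log2 ratio of 1.40 (1.22 to 1.59), RGL4 from 134 to 341, a log2 ratio of 1.32 (1.03 to 1.62), and CABIN1 from 1912 to 4001, a log2 ratio of 1.04 (0.96 to 1.12). HIC2 (3332 to 6772 counts; 0.94 to 1.06) stood just short of 2-fold, and CRKL had a log2 ratio of 0.87 (0.84 to 0.91). The 5 lower ones were P2RX6 at -2.55 (-3.25 to -1.93), ZNF70 at -1.73, SLC2A11, a sugar transporter, at -1.49, YPEL1 at -1.39 and RIMBP3B at -1.36. Neither BCR (0.12; 0.04 to 0.20) nor ABL1 (0.02; -0.04 to 0.07) came near 2-fold. In the same pair of libraries 9 of the 10 erythroid markers were higher in periplocin, and their sum went from 2700 to 10980 CPM. The share of mitochondrially encoded counts went from 5.62% to 2.07%. The part of either in the members' values was not tested.

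In THP-1 more members were lower in periplocin. Of 39 that passed the filter, 12 were lower, or 30.8%, and 3 were higher, or 7.69%, where 10.5% and 8.03% of all genes were. The median log2 ratio was -0.40, against -0.02 over all genes. The rest of chromosome 22 also held more lower genes than that share, each part with a median of -0.21. They were 8 of 39 genes before the interval, or 20.5%, and 34 of 228 after it, or 14.9%. The 12 members count RIMBP3B and its near-identical copy RIMBP3C separately. A member may also pass the filter through its DMSO library alone, as DERL3 did. Both sides of BCR took part, with 7 of 27 lower up to its end and 5 of 12 after it. The lowest well-expressed members were ZNF74, which went from 337 to 96 counts, a log2 ratio of -1.58 (-1.92 to -1.25), and CHCHD10, from 328 to 96, at -1.54 (-1.89 to -1.21). DDT went from 815 to 256 at -1.44, THAP7 from 332 to 119 at -1.25, and YDJC from 550 to 208 at -1.17. DERL3 had 38 and 8 counts (-2.0; -3.33 to -0.90), AIFM3 219 and 65 (-1.52), and RIMBP3B 292 and 88 (-1.50). MIF went from 1590 to 703 counts (-0.95; -1.08 to -0.82), just short of 2-fold. The 3 higher ones were ZNF280A at 1.26 (0.72 to 1.83), RGL4 at 1.01 (0.79 to 1.22) and ADORA2A, an adenosine receptor. ADORA2A had 0 counts in DMSO and 72 in periplocin, at least 28.2-fold higher against a floor of 3 counts. However, the readthrough gene SPECC1L-ADORA2A had 26 and 0 counts in the same libraries, and their sum, 26 and 72 counts, gave a log2 ratio of 1.69 (1.03 to 2.41). PRAME had 0.94 (0.84 to 1.04) and SPECC1L 0.43 (0.32 to 0.53). In the same pair 2 of the 10 myelomonocytic markers were higher, FCGR1A (1.45) and ITGAM (1.12), and 2 were lower, CTSG (-1.86) and MPO (-1.38). The summed level of the 10 went from 1471 to 1361 CPM. Mitochondrially encoded genes took 5.24% and 3.92% of the counts in this pair, and the part of these differences in the members' values was not tested.

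**Figure D5:**
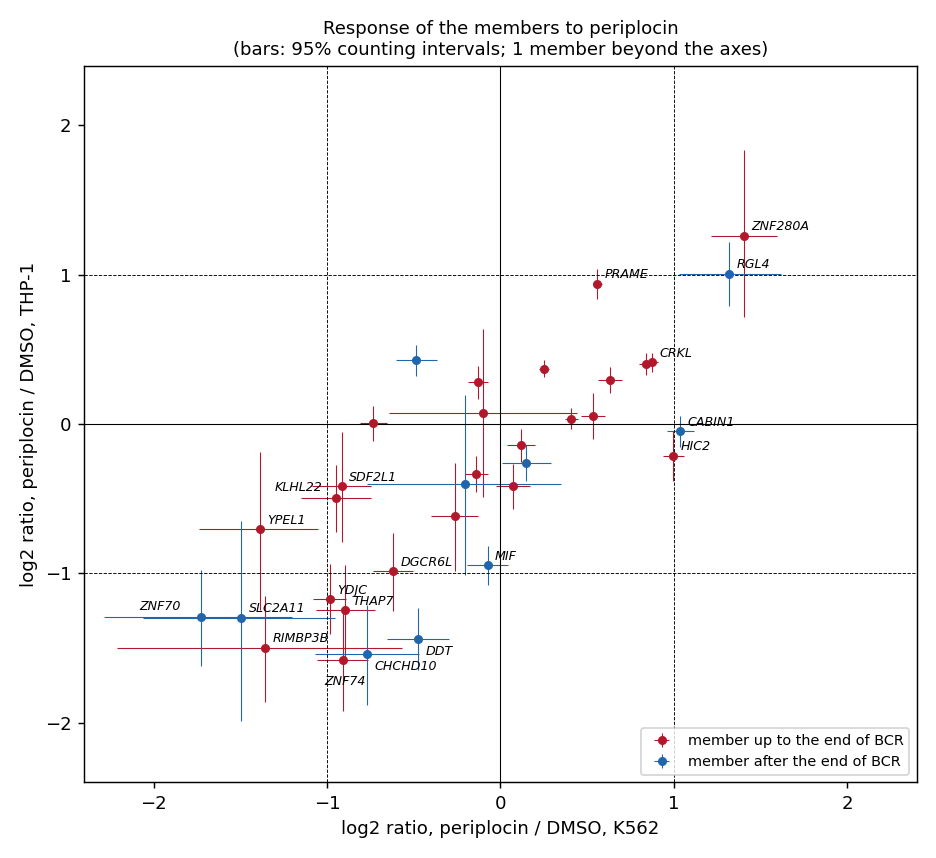
Log2 ratio of periplocin to DMSO in K562 (horizontal axis) and in THP-1 (vertical axis) for members that passed the filter in both, with bars for the 95% counting intervals. Red and blue points lie up to and after the end of BCR and dashed lines mark 2-fold; 10 members are above 0 in both lines and 16 below 0 in both, and ADORA2A lies beyond the axes.

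The 2 lines share no library, so their responses can be set side by side. Of 35 members that passed the filter in both, 26 had the same sign, or 74.3%, where 61.7% of 10779 genes did. A total of 10 were above 0 in both and 16 below 0 in both. ZNF280A and RGL4 were called higher in both lines, though RGL4 in THP-1 went to between 0.97 and 1.0, under the threshold, with 3 other scalings. ZNF70, SLC2A11 and RIMBP3B were called lower in both. In the model over 4 libraries, edgeR called no member for periplocin, with 11 of 42 at an unadjusted p under 0.05 and a lowest adjusted p of 0.371. It called none of all 13584 genes either, with 1535 at an unadjusted p under 0.05. DESeq2 called 73 genes higher and 52 lower, none of them members, and gave no adjusted p for 7 of the members. Of the adaptors and kinases listed, 20 passed the filter in K562. Of these 2 were lower in periplocin, GAB2 (-1.80) and STAT5A (-1.78). Another 2 were higher, the kinase JAK2 (1.41) and the phosphoinositide 3-kinase subunit PIK3R2 (1.25). Over all genes in K562 8.84% were higher and 11.6% lower, so that these counts were near the shares of all genes. None of the 22 reached 2-fold in THP-1, where 8.03% of all genes were higher and 10.5% lower.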

How the data were processed

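Poly(A) RNA of K562 and THP-1 cells in DMSO or 100 nM periplocin for 72 h (dose and time from the study's methods, not the labels) was sequenced, 1 library per condition. The authors deposited 1 table of estimated counts per gene, not normalized. Their processing notes name HISAT2, StringTie 1.3.1 and hg38; the annotation and strand setting are not given in the sources used here, so reads of overlapping or antisense genes cannot be separated. Per library, 87.4% to 88.3% of the deposited estimated counts, zeros included, were exactly whole; all were rounded.

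Genes were matched to GENCODE release 29 (20118 of 20348 found), which also gave exonic lengths. The members and lists were chosen with earlier results of these data known. Ratios were scaled by TMM within each pair of libraries (edgeR 4.0.16, R 4.3.3) with a prior count of 0.125, and intervals are exact (Clopper-Pearson) binomial; PCR reads are not independent molecules, so they cover counting error only. Reads per kb of exon used the union of exons. Over the 4 libraries, edgeR's quasi-likelihood test had terms for line and treatment on the 13584 genes that reached 10 counts in 2 libraries or more, with Benjamini-Hochberg adjustment at 0.05; DESeq2 1.42.0 was the alternative. Scripts were tested on simulated data. Genes named are BCR, ABL1, the nearest expressed members on each side of the end of BCR, members of at least 10 CPM that differ 2-fold between lines in DMSO, the 5 largest rises and falls in each line, role-list members of at least 10 CPM, and listed adaptors and kinases past 2-fold. Some genes that this rule takes in are not reported here. Figures were drawn with matplotlib 3.10.9.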

Additional observations from a re-analysis of the deposited data

Results flagged for a closer look

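In 5 members the response to periplocin went one way in K562 and the other way in THP-1, with both counting intervals clear of 0; with 1 library per condition the difference itself was not tested. These were 14.3% of the 35 members over the filter in both lines, where 20.2% of all 10779 genes over it met the same rule. On the log2 scale the response in K562 minus that in THP-1 was 1.209 for HIC2 (1.00 against -0.21), -0.9107 for SPECC1L (-0.48 against 0.43), 0.41 for SMARCB1 (0.15 against -0.26), -0.4098 for SNAP29 (-0.13 against 0.28) and 0.2612 for BCR (0.12 against -0.14). Such intervals are narrow for genes with many counts and leave out the spread between cultures.

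Some genes of the interval that are no members, since they are not protein-coding or are immunoglobulin segments, had more than 3 counts in a library. The pseudogene AC002472.3 lies before BCR, at 21011384 to 21014217, inside the span of the member P2RX6 (21009808 to 21028830). It had 335 counts in K562 in DMSO and 194 in periplocin, against 16 and 7 in THP-1. Its log2 ratio was 4.59 (3.88 to 5.42) in DMSO. Whether reads were shared between it and P2RX6 was not tested. The light chain segments IGLV5-52 and IGLV3-9 reached 16 and 5 counts, both in a THP-1 library.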

How the results depend on the processing

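No paired analysis was possible because each condition has 1 library and so no replicate number to block on, beyond the model over 4 libraries, which already holds the line as a term beside the treatment. For the same reason leaving out a library was not run. Across the alternatives run for it the median log2 ratio of K562 to THP-1 up to the end of BCR ran from 1.69 to 1.87 in DMSO and from 1.84 to 2.03 in periplocin, and after it from -0.27 to -0.09 and from -0.16, without members that have near-identical copies, to 0.56. No called value reversed. Scaling to total counts moved the median of all genes from -0.03 to 0.10 in DMSO and from 0.01 to 0.18 in periplocin; the medians up to the end of BCR became 1.86 and 2.03, and 1.87 and 2.0 without mitochondrially encoded genes.
At 4-fold in place of 2-fold, 11 genes up to the end of BCR were higher in K562 in each comparison of lines, and after it 0 were higher or lower. For periplocin at 4-fold, up to the end of BCR K562 had 0 higher and 1 lower and THP-1 had 0 of each; after it K562 had 0 of each and THP-1 had 1 of each.
With no filter, in the comparisons of lines the genes after BCR gave 4 higher and 6 lower in DMSO and 4 and 4 in periplocin, and 7 up to its end were lower in periplocin. With no filter periplocin gave 3 higher and 6 lower up to the end of BCR and 4 and 5 after it in K562, and 3 higher up to the end and 9 lower after it in THP-1. With a mean of 5 CPM, the lower genes in the lines were 2 up to the end and 1 after it in DMSO and 0 and 0 in periplocin, where the first median was 1.96; for periplocin 1 and 1 were lower in K562, and in THP-1 0 were higher up to the end, with 1 higher and 3 lower after it. With 1 CPM in both libraries, 2 and 1 genes were lower in DMSO, 1 up to the end was lower in periplocin, and 1 after it was higher in THP-1. Without the 13 members listed as having near-identical copies, 2 and 1 genes up to the end of BCR were lower in DMSO and periplocin. Those dropped there that passed the filter in DMSO were RIMBP3B, RIMBP3C, PI4KA and PRAME. How close the copies are was not measured, and DGCR6L, whose reads may be shared with DGCR6, was not on the list.
Divided at the start of BCR, 2 genes after the division were higher in periplocin, BCR being the other. Other scalings gave 1 gene after BCR higher in THP-1 (TMM over 4 libraries, total counts, and total counts without mitochondrially encoded genes), as RGL4 fell to 0.97 to 1.0; with total counts 2 up to the end were higher in K562, HIC2 joining at 1.01, and without mitochondrially encoded genes 1 after it was, and 1 was lower in the DMSO lines. DESeq2 called 73 genes higher and 52 lower for periplocin, and edgeR with no filter 1 higher.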
